A study of Drosophila melanogaster with 5 samples.

Results

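Aminoacyl-tRNA synthetases are the enzymes that join each amino acid to its tRNA, the step that fixes the meaning of the genetic code. The probes were chosen by gene symbol alone: a three-letter amino acid name followed by RS, with -m for a mitochondrial enzyme, together with GluProRS, alpha-PheRS, beta-PheRS and the older Aats- names. This gave 38 of 16224 probes, for 31 genes (17 cytosolic and 14 mitochondrial by symbol). Of these, 30 were among the 10124 genes with a value. The current RefSeq gene table lists 35 such symbols, and AspRS, LeuRS, MetRS and AlaRS-m had no annotated probe and were not analysed here. The genes lie on every major chromosome arm, 5 on 2L, 6 on 2R, 9 on 3L, 7 on 3R and 4 on X.

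IPC-deficient females were compared with control females, all Drosophila melanogaster, as whole animals aged 14 days that had eaten only yeast paste for 48 h. In the IPC-deficient flies (IPC, insulin-producing cell) the driver InsP3-Gal4 expressed the cell death genes reaper and hid from UAS-RPR/HID. The control flies had InsP3-Gal4 with UAS-LacZ, so both groups had the driver. RNA of both groups, from 2 biological repeats, was hybridised together on 5 two-colour arrays, with the IPC-deficient RNA carrying Cy5 on 2 arrays and Cy3 on the other 3. The driver acts in a small group of brain neurons, while the RNA came from the entire body, so fewer cells of a type and less RNA of a gene per cell cannot be told apart. Ilp2, an insulin-like peptide of these neurons, stood at a log2 value of 0.0093 from 4 filled spots, which gave no check of the ablation.

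The synthetases fall into 2 structural classes, each with its own fold of the catalytic domain. In animals, several cytosolic members form a multisynthetase complex held together by the scaffold proteins AIMP1, AIMP2 and AIMP3. Nuclear genes encode the mitochondrial members too, and these charge the tRNAs used to translate the proteins encoded by mitochondrial DNA. In yeast and mammals, uncharged tRNA activates the kinase Gcn2, and the transcription factor that acts after it, Gcn4 in yeast and ATF4 in mammals, is known to induce many synthetase genes when amino acids are scarce. Insulin and TOR signalling is known in flies to raise protein synthesis when food is plentiful, so these genes belong to the machinery on which growth depends.

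The deposited table held 1 combined signed fold change per probe, the same in each filled array column, so no value per array, no spread between flies and no test could be obtained. Each value was put on the log2 scale with its sign kept. Which group is the numerator is not recorded: negative values are taken to mean lower in IPC-deficient flies, because the design names these flies first. On this reading tobi, an alpha-glucosidase gene known as a target of brain insulin, stood at -4.10. Whether that knowledge of tobi came from these same arrays was not examined, so it is not counted as independent support. With the sign turned, each direction below would be the opposite. The only error that could be computed was the SD between probes that target the same gene, 0.18 on the log2 scale over 647 genes with 1437 probes measured on all 5 arrays. Over all probes with a value, those on fewer arrays included, this SD was 0.56 (1167 genes with 2649 probes). Below, 0.18 is the SD between probes that is meant, and it was not obtained from probes like those of GluRS-m, ProRS-m, TyrRS-m and SerRS-m, which were not measured on all 5 arrays. Neither SD includes any variation from fly to fly.

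None of the 30 measured synthetase genes reached 1.5-fold in either direction, where the positive side past 1.5-fold held 2.24% of all genes and the negative side 3.11%. At 2-fold these shares were 0.711% and 1.45%, with 0 synthetase genes on either side. The gene furthest above 0 was GluRS-m, at 0.25 (1.19-fold), and the gene furthest below was TrpRS, at -0.24 (1.18-fold). Of the 30 genes, 13 were above 0, a share of 43.3% against 48.1% of all genes. Their median was -0.029, against -0.0077 for all genes. Only GluRS-m and TrpRS, 6.67% of the members, lay further from 0 than 0.18, the SD between probes, against 32.2% of all genes. Of the 26 members measured on all 5 arrays, only TrpRS did (3.85%), against 27.5% of all genes so measured. No member lay beyond 2 such SDs, against 11.5% of all genes and 7.52% of those on all arrays.

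**Figure D1:**
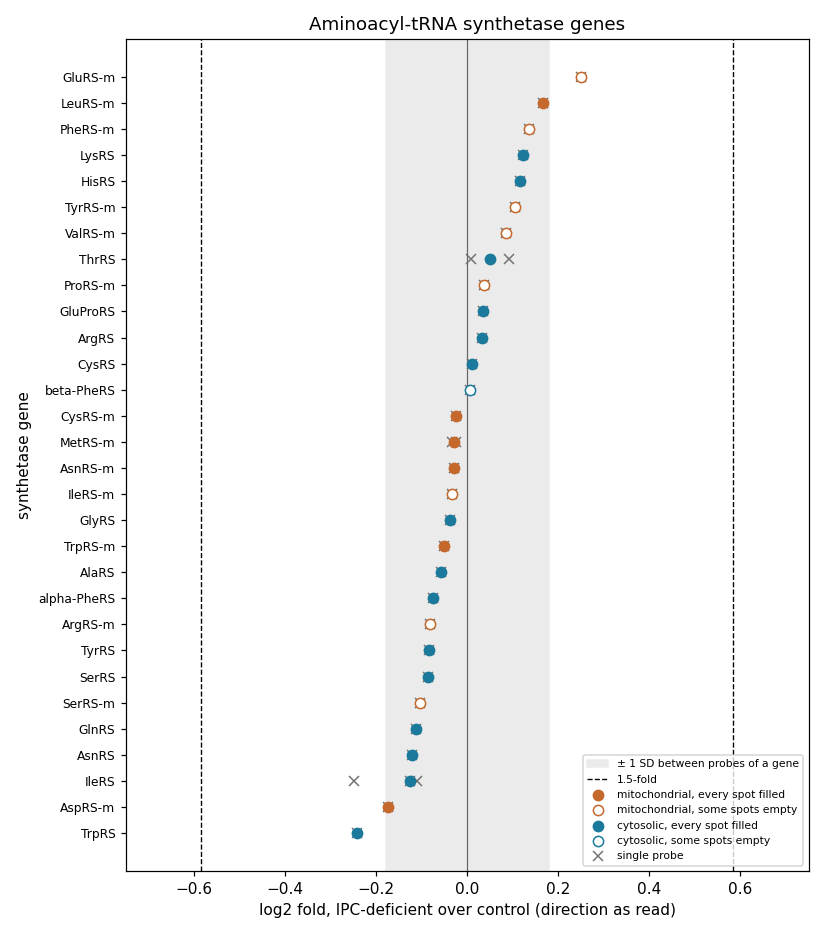
Log2 fold, IPC-deficient over control with the direction as read, for the 30 measured synthetase genes (filled circles, all 10 spots of each measured probe filled; open circles, some spots empty; crosses, single probes). The grey band is 1 SD between probes of a gene (0.18) to either side of 0, and only GluRS-m and TrpRS lie outside it; the dashed lines mark 1.5-fold.

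The cytosolic enzymes centred slightly below 0, and the median of the 16 genes was -0.048, with 7 of them above 0. TrpRS, which charges tryptophan, stood at -0.24 from a single probe with all 10 spots filled, at the 11.2th percentile of all genes. IleRS, the isoleucine enzyme, had 3 probes at -0.25, -0.13 and -0.11, so all of its probes lay below 0 and the gene value was their median of -0.13. On the array, 4 of the 22 measured probes within 2 spots of the IleRS probe at -0.25 lay past 1.5-fold on the negative side, against 1 of 19 and 0 of 19 for its other probes. The part of this in the lower probe was not tested. AsnRS and GlnRS, which charge the amide amino acids asparagine and glutamine, stood at -0.12 and -0.11.

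Several cytosolic genes lay still nearer to 0. SerRS and TyrRS, the serine and tyrosine enzymes, stood at -0.086 and -0.085. TyrRS had 3 probes on the array, of which only 1 had a value. AlaRS, an enzyme known to proofread mischarged tRNA, stood at -0.058. GlyRS, whose gene makes both the cytosolic and the mitochondrial glycine enzyme in flies and whose human counterpart is mutated in an inherited neuropathy, stood at -0.038. The phenylalanine enzyme is a tetramer of 2 alpha and 2 beta chains, and the genes of its subunits stood at -0.075 (alpha-PheRS) and 0.0066 (beta-PheRS), a gap of less than the SD between probes.

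On the positive side, LysRS and HisRS, the lysine and histidine enzymes, stood furthest up among cytosolic members, both at 0.12. ThrRS, the threonine enzyme, had probes at 0.092 and 0.0080 and a gene value of 0.050. LysRS, HisRS and ThrRS are counted as cytosolic by symbol only, because the RefSeq gene table lists no -m symbol for them. Whether these genes also supply a mitochondrial enzyme was not examined, so the compartment medians hold for the split by symbol. GluProRS, a fused protein that charges both glutamate and proline, and ArgRS, for arginine, stood at 0.034 and 0.033, and CysRS, for cysteine, at 0.011. ValRS, the valine enzyme, had 1 probe and no filled spot. The 5 measured enzymes of the multisynthetase complex (LysRS, GluProRS, ArgRS, GlnRS and IleRS) lay on both sides of 0, from -0.13 to 0.12, with a median of 0.033. None of them exceeded the SD between probes.

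The mitochondrial enzymes also lay on both sides of 0, 6 above and 8 below, and their median over 14 genes was -0.027. GluRS-m stood highest at 0.25, but from 5 filled spots on 3 arrays. In mammals this enzyme also places glutamate on the glutamine tRNA of mitochondria, where a transamidase converts it to glutamine. LeuRS-m, the leucine enzyme, followed at 0.17 from all 10 spots, and PheRS-m, which unlike its cytosolic counterpart is a single chain, at 0.14 from 9 spots. TyrRS-m stood at 0.11 from 6 spots on 3 arrays and ValRS-m at 0.086 from 7 spots. ProRS-m, for proline, was close to 0 at 0.036 from 5 spots on 3 arrays.

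Below 0, AspRS-m, the aspartate enzyme, stood lowest among mitochondrial members at -0.18 from all 10 spots, just inside the SD between probes. SerRS-m stood at -0.10 from 7 spots on 4 arrays and ArgRS-m at -0.083 from 7 spots. TrpRS-m stood at -0.051, IleRS-m at -0.034, AsnRS-m and MetRS-m at -0.029 each, and CysRS-m at -0.025. MetRS-m had 2 probes with values, -0.034 and -0.025, and a further probe with no filled spot. In IleRS, ThrRS and MetRS-m, the 3 members with several measured probes, the SD between probes was 0.061 over 7 probes, smaller than that over all such genes.

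The compartments differed in how completely the spots were filled. Of the mitochondrial probes with a value, 7 of 15 had all 10 spots filled and 4 were missing from at least 1 array, while 18 of 19 cytosolic probes had all 10 and none was missing from an array. Over all probes with a value on the array, 41.9% had all 10 spots filled. What leaves a spot empty is not stated, and the table holds no signal level. Probes with 5 to 9 filled spots differed from 10-spot probes of the same gene by a median of 0.14 (501 probes), against 0.090 for 10-spot probes set against the other 10-spot probes of their gene (629 probes). The 9 synthetase probes with 5 to 9 filled spots were those of GluRS-m, ProRS-m, TyrRS-m, SerRS-m, ArgRS-m, ValRS-m, IleRS-m, PheRS-m and beta-PheRS.

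For 8 amino acids the mitochondrial and the cytosolic enzyme were both measured, which gave 9 pairs because PheRS-m was set against each cytosolic subunit. The mitochondrial gene was the higher of the pair in 6 and the lower in 3. For phenylalanine, PheRS-m at 0.14 was set against alpha-PheRS at -0.075, the widest gap of the 9 at 0.21. For tryptophan, TrpRS-m at -0.051 was set against TrpRS at -0.24, a difference of 0.19, and for tyrosine, TyrRS-m at 0.11 against TyrRS at -0.085, also 0.19. The serine pair lay closest, with SerRS-m at -0.10 and SerRS at -0.086. None of the 9 differences exceeded 0.25, the SD expected of a difference between 2 probes.

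**Figure D2:**
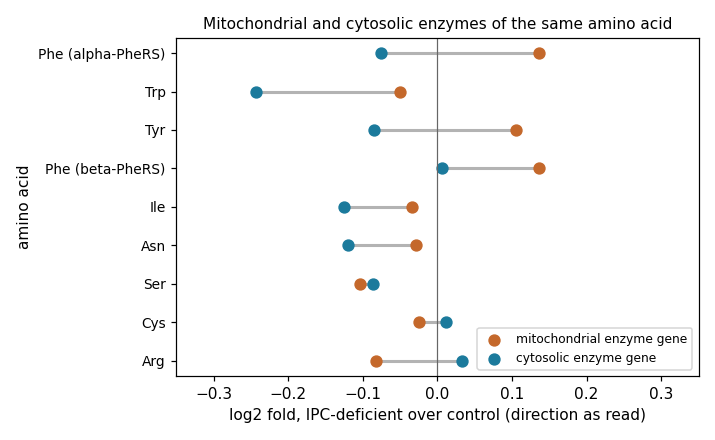
Log2 fold, IPC-deficient over control with the direction as read, for the mitochondrial and the cytosolic enzyme gene of the same amino acid, ordered by their difference. The gap was widest for PheRS-m against alpha-PheRS at 0.21 and stayed within 0.25, the SD expected of a difference between probes, in all 9 pairs.

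Split by structural class, the values overlapped fully. The 16 class I genes, a class that includes TrpRS, TyrRS, IleRS and ArgRS, had a median of -0.027 and ranged from -0.24 to 0.25. The 14 class II genes, such as AlaRS, SerRS, LysRS and HisRS, had a median of -0.034 and ranged from -0.18 to 0.14. GluProRS was counted in class I for its glutamate part, although its proline part belongs to class II. In class I, 7 of 16 genes were above 0, and in class II 6 of 14.

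The synthetase values were spread less widely than the genes at large. The SD across the 30 synthetase genes was 0.11, against 0.36 across all genes and 0.23 across the 6531 genes with each measured probe on all 5 arrays. On all 5 arrays, 26 synthetase genes were measured, with an SD of 0.099. None was past 1.5-fold, where the positive side held 1.96% of genes so measured and the negative side 0.704%, and 10 of the 26 were above 0, against 49.9% of those genes. The distance from 0 had a median of 0.084 for synthetases and 0.11 for all genes. All 30 lay within 0.25 of 0, a range that also held 79.4% of all genes and 83.9% of those measured on all arrays. These are descriptions of this table and not tests.

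Ribosomal protein genes, which encode the other large part of the translation machinery, are set beside the synthetases. The 62 mitochondrial ribosomal protein genes had a median of 0.041, with 41 above 0 (66.1%). The 36 cytosolic ones had a median of 0.18, with 32 above 0 (88.9%), against 48.1% of all genes. On the negative side, 2 mitochondrial genes and 1 cytosolic gene lay past 1.5-fold, as did 3.11% of all genes. The lowest values were -1.25 (mitochondrial) and -2.41 (cytosolic), and how many filled spots they rested on is not given here. On the positive side 0 of either set did, against 2.24% of all genes. Both sets were drawn by name pattern after values were known, and the difference from the synthetases was not tested. The pattern fixes only the start of a symbol, so related genes with longer symbols may be included.

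**Figure D3:**
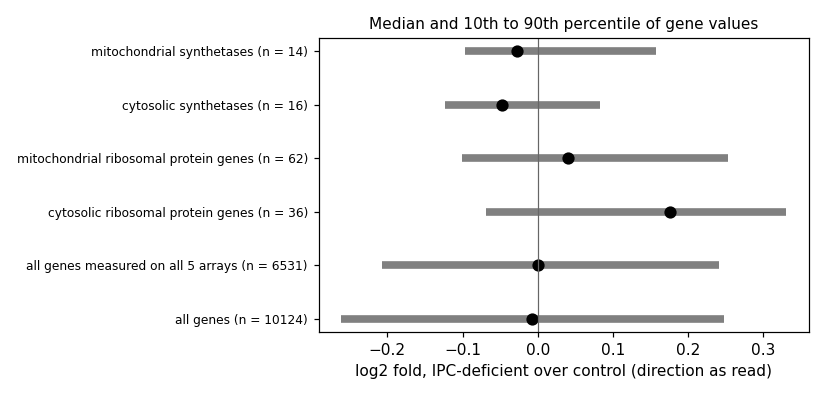
Median (circles) and range from the 10th to the 90th percentile (bars) of gene values, as log2 fold of IPC-deficient over control with the direction as read. The synthetase medians lie at -0.027 (mitochondrial) and -0.048 (cytosolic), the cytosolic ribosomal protein median at 0.18 and that of all genes at -0.0077.

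The partners of the synthetases were followed through lists of related genes. Of the synthetase-associated proteins, AIMP2, a scaffold of the multisynthetase complex, stood at 0.23, further from 0 than the SD between probes, and AIMP1 at 0.023, each from all 10 spots. The mitochondrial transamidase, which acts on the tRNA that GluRS-m charges, was represented by GatA at -0.018 and GatB at -0.055, so the glutamate branch had GluRS-m at 0.25 and 2 subunits of the enzyme after it near 0.

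Charged tRNA is carried to the ribosome by elongation factors, and 7 listed factors had a median of -0.0093, with none past 1.5-fold. eEF1gamma, a subunit of the factor that recharges eEF1alpha with GTP, stood at 0.19 and eEF1alpha2, the tRNA carrier itself, at 0.16. In mitochondria, the carrier gene mEFTu2 stood at 0.17 from 7 spots, and mEFTu1, also a carrier gene, at -0.0093 from all 10. The gene of the exchange factor, mEFTs, stood at -0.21.

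The list for tRNA maturation and modification had a median of -0.064 and an SD of 0.33 over 19 measured genes. Without a spot filter this was the widest spread of the related lists other than tissue markers. The amino acid transporters, all with at least 5 filled spots, came next at 0.22. The SD of 0.33 includes genes with under 5 filled spots, and the ranking was not repeated without them. Archease, a cofactor of the ligase that joins the cut ends of tRNA after splicing, stood at -0.45 (1.36-fold) from all 10 spots. RluA-1 stood at 0.43 from 6 spots, and its relative RluA-2, another member of the pseudouridine synthase family, at -0.35 from 2 spots. Rpp14b, a subunit of the ribonuclease that trims the 5′ end of tRNA, stood at -1.15, past 1.5-fold, but from a single filled spot. With at least 5 filled spots, 15 genes of this list were left, 0 of them past 1.5-fold, and the median was -0.0055.

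RNA polymerase III, which transcribes the tRNA genes, was measured with its factors through 9 genes, with a median of 0.034 and none past 1.5-fold. The subunit genes Polr3A, Polr3C and Polr3D stood at -0.23 (2 spots), -0.22 (7 spots) and -0.18 (19 spots over 2 probes), and Polr3F at 0.14 (5 spots). Subunits of the same polymerase thus lay on both sides of 0.

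The 7 measured genes of the amino acid response and of growth control had a median of -0.12, and 5 of them were below 0. PEK, the stress kinase of the endoplasmic reticulum that targets the same initiation factor as Gcn2, and PPP1R15, a subunit of the phosphatase that reverses this, both stood at -0.24. Gcn2 itself, the sensor of uncharged tRNA, stood at -0.12 from all 10 spots, and crc, the fly ATF4, at 0.079. trbl, a pseudokinase that curbs insulin signalling in flies, stood at -0.13 and S6k, a kinase activated by TOR, at 0.14. Gcn2 and crc were named after their values were seen.

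The 10 measured amino acid transporter genes, which supply the substrates of the synthetases, had a median of -0.048. No gene value was past 1.5-fold, but the 3 probes of slif disagreed. They ran from -0.31 to 1.77, the upper one past 1.5-fold, and their median gave a gene value of -0.081. The transporter-related genes ine and List stood at 0.53 and -0.29, each from 5 spots, and mnd and path at -0.15 and 0.11.

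**Figure D4:**
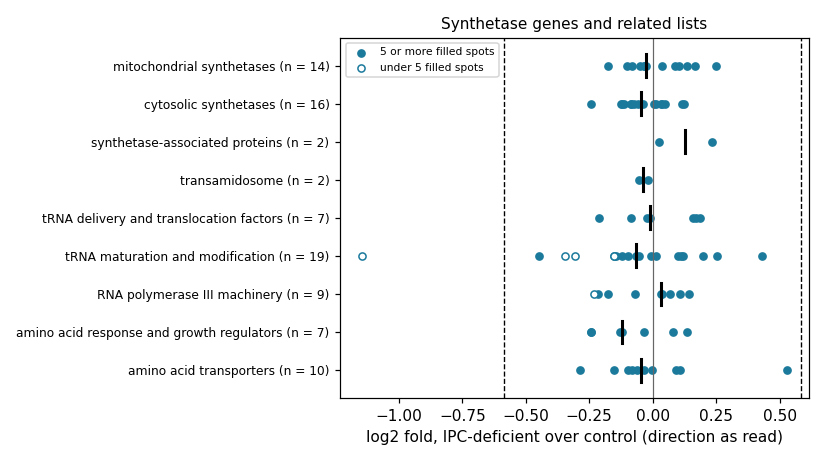
Gene values, as log2 fold of IPC-deficient over control with the direction as read, for the mitochondrial and cytosolic synthetases and each related list other than the tissue markers (points, genes; open points, under 5 filled spots; bars, list medians). The dashed lines mark 1.5-fold, and Rpp14b at -1.15 is the only gene shown beyond them.

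Some tissue markers lay further from 0 than any synthetase gene. The gene values of the 4 measured midgut markers lay from 0.66 to 1.41 and those of the 4 muscle markers from 0.34 to 1.17. All were above 0, but the midgut gene Peritrophin-A rested on 3 spots. The probes of the muscle gene up ran from -0.030 to 0.35. The 6 male accessory gland and testis markers lay from -1.32 to -0.27, although all flies are labelled female. The lowest of these, Acp95EF, rested on 4 spots, and Acp36DE and Acp62F on 3 each. The 6 markers had a median of -0.73, and 4 of them lay past 1.5-fold on the negative side, against 3.11% of all genes. Of the 3 with at least 5 filled spots, whose median was -0.47, 1 did. The 5 female germ line markers had a median of -0.075 and ranged from -0.27 to 0.072. The highest, bcd, had 2 probes that disagreed, at -0.27 and 0.42. The list drawn up for the fat body held 5 measured genes, with a median of -0.023. Its ends were Lpin at -0.42 and Fad2 at 1.02. Whether Fad2 marks the fat body was not examined, and Fbp1, the next highest at 0.56, rested on 3 spots. The part of tissue composition in the synthetase values was not tested.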

How the data were processed

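Whole-fly RNA of both groups shared each of the 5 arrays. Per the labels and the design text, each array was scanned 3 times and the authors normalized both spot copies and all hybridisations together. Background correction, normalization method and spot filter are not stated there. The deposited values were signed fold changes: 0 of 32448 features had a value under 1 in size, and of 27376 features filled in 2 or more columns, 0 differed between columns, so the authors' table gave 1 value per probe. The number of biological repeats (2) and of arrays limits the precision.

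Spot copies were joined (at most 10 filled spots per probe) and each value was set to log2 of its size with its sign. Symbols came from the platform annotation, updated with the Release 6 RefSeq gene table by Entrez identifier, which matched all 38 member probes. Genes took the median of their probes, and probes equal to 5 decimals counted once. A size of 1.5-fold served as the threshold, and no test was run. The joining steps were tested on simulated data. Members and lists were chosen with earlier results of these data known. The text names all measured members and up to 4 genes furthest from 0 in each related list (all genes in lists of up to 5). Gcn2, crc, slif and mEFTu1 are named besides these. Tissue markers are given by list, with a few named for their values or spots. Alternatives were a 2-fold threshold, column centring, stricter spot filters, a turned sign, other rules for several probes, and leaving out each array. No sequences are printed. Python 3.11.15, numpy 2.4.6, pandas 2.3.3 and matplotlib 3.10.9 were used.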

Additional observations from a re-analysis of the deposited data

How the results depend on the processing

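The counts of synthetase genes past 1.5-fold were 0 on each side under every alternative run, the 2-fold threshold included. The median over all synthetase genes stayed between -0.032 and -0.027, that over cytosolic genes between -0.058 and -0.048 and that over mitochondrial genes between -0.030 and -0.025 when columns were centred, spots filtered or probes joined otherwise. With the sign turned, these medians became 0.029, 0.048 and 0.027, by construction, and 17 genes lay above 0. Leaving out any 1 array left all 30 genes with a value and gave medians of -0.029, -0.048 and -0.027, but since the columns repeat 1 combined value, this shows only that no gene rested on 1 array and says nothing about the spread between arrays. No paired analysis was possible because the arrays form a single group and the table holds no value per array. Apart from GluRS-m and TrpRS, all members lay within 0.18 of 0, the SD between probes measured on all 5 arrays. That SD is pooled over many genes, and in the 3 members with several measured probes it was 0.061. Differences among members could not be tested, since the table holds 1 combined value per probe.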

Other observations

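GluRS-m and TyrRS are direct neighbours in the genome, the only adjacent pair among the measured synthetases, and stood at 0.25 and -0.085. Over the 47 measured protein-coding genes next to a synthetase gene, GluRS-m and TyrRS included, the median was 0.0092. Of them, 26 were above 0 (55.3%, against 48.1% of all genes) and 21 below. Of these 47 neighbours, 1 lay past 1.5-fold, where the negative side held 3.11% of all genes and the positive side 2.24%. It was CG13392 beside AlaRS, at -0.59 from 5 spots, where AlaRS itself stood at -0.058. ArgRS-m at -0.083 lies beside mRpS9, a gene of the mitochondrial ribosome, which stood at 0.42 from all 10 spots. LysRS at 0.12 lies between Lst8, a partner of the TOR kinase, at -0.32 from 5 spots and Hecw at -0.31 from 20 spots. These genes were picked out after their values were seen.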
